A study of Rattus norvegicus with 4 samples.

Results

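The transporters and pumps described here move zinc, copper, magnesium and calcium across cell membranes. They were taken from the study's lists of transporters and pumps in the choroid plexus, in epithelial cells sorted from it and in the kidney proximal tubule, by the start of the gene name (SLC30A, SLC31A, SLC39A, SLC41A, SLC8A, SLC8B, SLC24A, ATP2A, ATP2B, ATP2C and ATP7). This gave 34 genes of the 263 transporters and pumps in the lists, among 32883 gene IDs in each library: 17 for zinc, 10 for calcium, 4 for copper and 3 for magnesium. The lists of the study hold genes with at least 0.5 TPM (a level corrected for gene length and scaled to sum to 1000000 in a library), so passing that cut-off in a listed tissue was fixed by the choice. Of the 34 genes, 32 were in the list for the male choroid plexus, 31 in that for the sorted cells, 12 in that for the proximal tubule and 11 in all lists. SLC39A2 was listed in the sorted cells alone and SLC30A2 in the proximal tubule alone.

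RNA sequencing was done on 4 libraries from Sprague Dawley rats aged 9 weeks. These were choroid plexus of males (a pool of 5 rats), choroid plexus of females (5 rats), epithelial cells from male choroid plexus captured by fluorescence-activated cell sorting (FACS) after collagenase digestion, with an antibody to the cotransporter NKCC1 (10 rats), and proximal tubules of the male kidney (5 rats). The kidney tissue came from the male rats and was digested with collagenase and pronase before tubules were picked by hand. No digestion is described for the whole choroid plexus. No animal carried a transgene or was treated, as far as the labels say. Each condition had 1 pooled library, so no spread between animals was measured, no test between conditions was possible, and the intervals given cover counting error only.

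The choroid plexus is a folded epithelium around a core of vessels and stroma in the brain ventricles. It secretes cerebrospinal fluid and, with tight junctions between its cells, controls which metals pass between blood and that fluid. Zinc enters the cytosol through the ZIP family (SLC39A) and leaves it, to the outside or into vesicles, through the ZnT family (SLC30A). Copper enters through SLC31A1 (CTR1) and is pumped into the secretory pathway or out of the cell by the ATPases ATP7A and ATP7B. Magnesium is carried by the SLC41A family. Calcium is removed from the cytosol by plasma membrane pumps (ATP2B), pumps of the endoplasmic reticulum and Golgi (ATP2A, ATP2C) and sodium-calcium exchangers (SLC8A, and the potassium-dependent SLC24A).

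Expected counts, the estimated reads per gene, summed to between 23873318 and 28324976 in the 4 libraries. Mitochondrially encoded genes took 4.32% to 5.34% of counts in the choroid plexus libraries and 70.7% in the proximal tubule library, which left 7352952 counts there for all other genes. In that library only 166 genes had more than 0 and fewer than 10 counts, against 1586 to 2640 in the others. Genes listed at 0 there are therefore given as listed at 0, without a fold. Proximal tubule TPM is given after removal of the 13 mitochondrially encoded genes and rescaling, unless stated. The epithelial markers of the choroid plexus (10 genes, led by TTR, transthyretin) summed to 253464 TPM in males, 298721 in females, 398953 in the sorted cells and 86.5 in the proximal tubules, where 6 of 10 were listed at 0. TTR alone had 238565, 285892 and 389655 TPM in the first 3 of these, and since TPM sums to a fixed total, a higher TTR lowers every other TPM. In females and in the sorted cells, only TTR and FOLR1 of the 10 markers were higher than in males. The other markers of this list were lower, so the sums follow TTR and not the list. Proximal tubule markers (13 named genes) summed to 3327 TPM in the proximal tubules, of which SLC3A1 gave most, and markers of other nephron segments (8 named) to 124.6, with 1 listed at 0.

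The 34 genes together had 1714 TPM in the male choroid plexus, 1364 in females and 951 in the sorted cells, or 10.4%, 9.24% and 7.47% of the TPM of all listed transporters and pumps. In the deposited proximal tubule values, mitochondrial genes included, they had 53.5 TPM, or 1.36%. Calcium transporters held the largest share of this sum in the choroid plexus (47.9% in males, 45.5% in females and 42.9% in the sorted cells), followed by copper (29.1%, 31.5% and 28.9%), zinc (20.3%, 20.5% and 25.4%) and magnesium (2.72%, 2.53% and 2.73%). In the proximal tubules copper held 72.3%, zinc 17.4%, calcium 10.4% and magnesium nothing. Much of each share came from 1 gene, and with the highest gene of each metal left out, copper held 4.27% of the rest in males and zinc 33.6%.

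**Figure D1:**
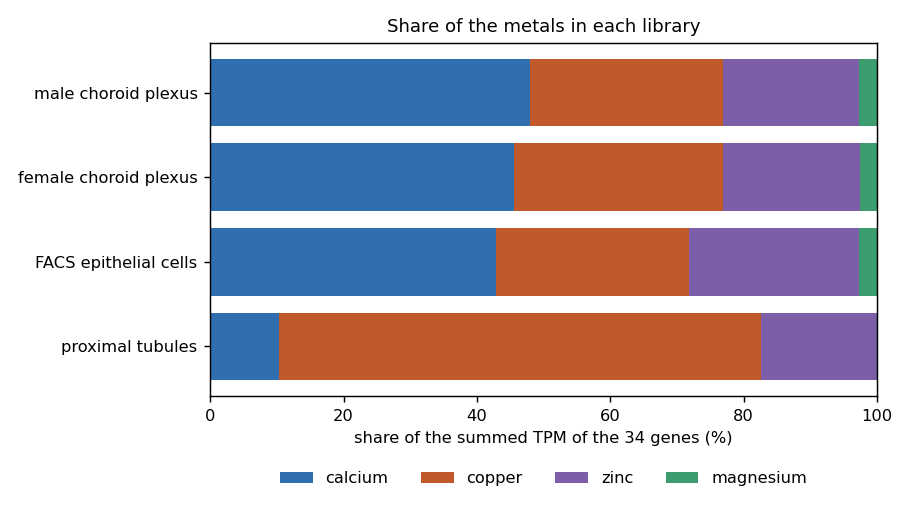
Share of each metal, in percent, in the summed TPM of the 34 genes of each library, as stacked bars that start at 0. Calcium takes the largest share in the 3 choroid plexus libraries (42.9% to 47.9%) and copper in the proximal tubules (72.3%).

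**Figure D2:**
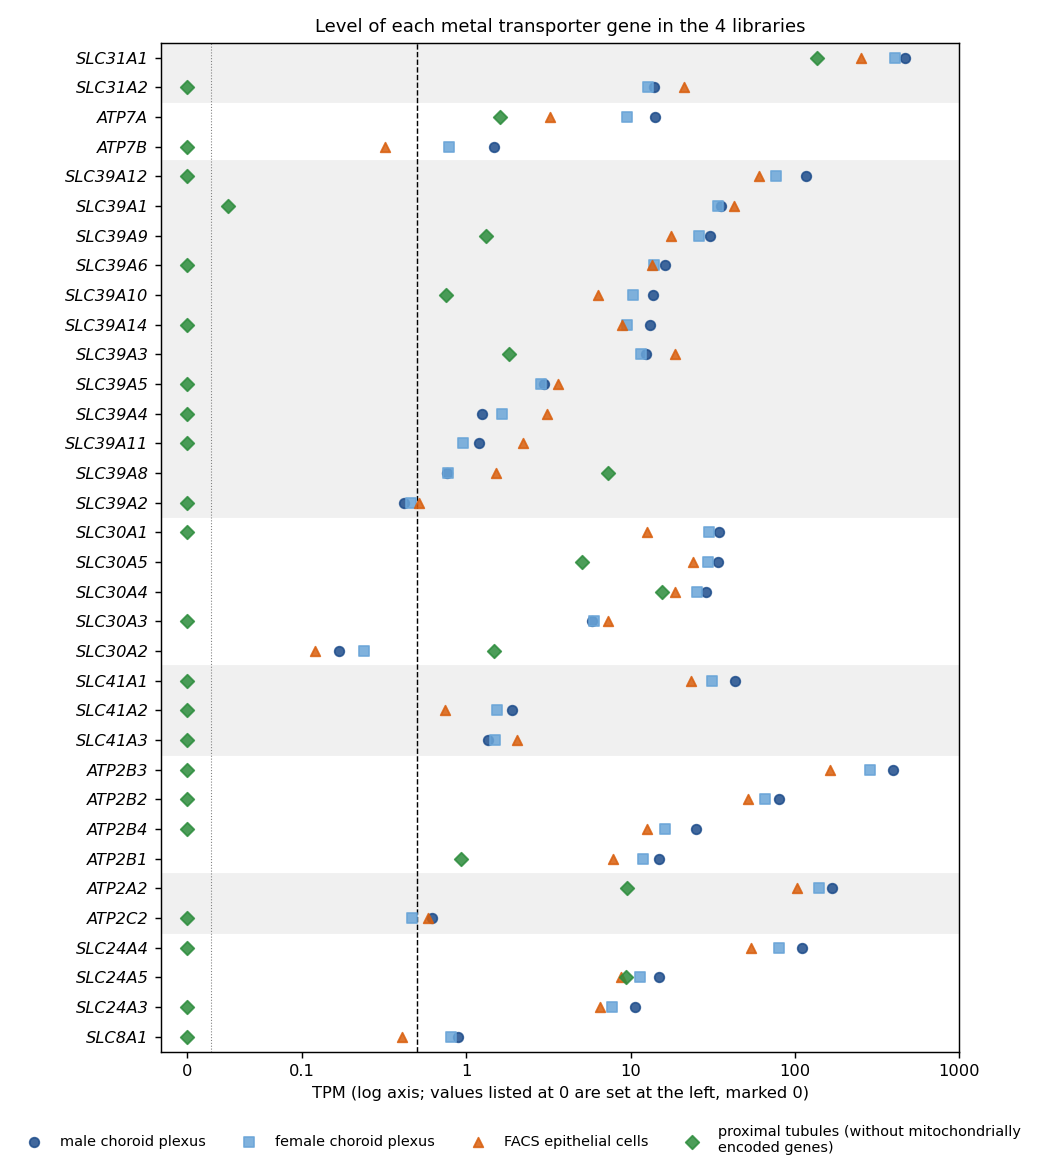
TPM of the 34 metal transporters in the 4 libraries on a log10 scale, grouped by metal and role in shaded bands, with 1 point per gene and library, a dashed line at 0.5 TPM and genes listed at 0 drawn at the left edge. SLC31A1, ATP2B3 and ATP2A2 lead the choroid plexus libraries, and 21 of 34 genes sit at 0 in the proximal tubules. Mitochondrially encoded genes were removed, and TPM rescaled, for the proximal tubules only.

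Of the copper transporters, SLC31A1 (ENSRNOG00000014475), the high-affinity copper importer of the plasma membrane, was the highest of all 34 genes in each library. It had 469 TPM in the male choroid plexus (13150 counts), 406 in females (11167), 250.2 in the sorted cells (7345) and 137 in the proximal tubules (1613). The male choroid plexus had the highest level and the proximal tubules the lowest. It ranked 8th among listed transporters and pumps in males and in females, 9th in the sorted cells and 10th in the proximal tubules. It gave 97.1% of the copper importer TPM in males and all of it in the proximal tubules, where SLC31A2 was listed at 0.

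SLC31A2 (CTR2), an intracellular relative that acts in copper release and in CTR1 processing, had 13.9 TPM in males, 12.85 in females and 21.2 in the sorted cells. It was thus higher in the sorted cells than in either whole tissue, the opposite order to SLC31A1. ATP7A (ENSRNOG00000061367), the copper ATPase that is mutated in Menkes disease, had 14.05 TPM in males, 9.55 in females, 3.22 in the sorted cells and 1.61 in the proximal tubules. ATP7B, the Wilson disease copper ATPase, had 1.48 TPM in males, 0.79 in females and 0.32 in the sorted cells, and was listed at 0 in the proximal tubules. Both pumps had the same order of libraries, and ATP7A made up 90.5% to 92.4% of pump TPM in the choroid plexus libraries. The TPM of copper importers was 31.1 times that of copper pumps in males, 40.6 times in females, 76.7 times in the sorted cells and 84.8 times in the proximal tubules, with ATP7A and SLC31A1 alone in the last.

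The promoters of 3 genes are shown, each chosen among the 34. SLC31A1 had the highest TPM of them in each of the 4 libraries. SLC39A12 was the highest zinc importer among them in the choroid plexus and was listed at 0 in the proximal tubules. SLC30A1 was the highest zinc exporter among them in the whole tissue. Each window runs 5′ to 3′ from 250 bases before to 50 bases after the gene's start in RefSeq, on the build GRCr8, which is not the build of the counts. For SLC31A1 (chr5:80830590-80830889, + strand) and SLC39A12 (chr17:82262107-82262406, + strand) capitals mark CpG, of which the windows hold 22 and 2. For SLC30A1 (chr13:106021769-106022068, + strand) capitals mark the core of the metal response element, searched as TGCACNC or TGCGCNC on both strands, which lies there in 2 places, on the opposite strand.
SLC31A1: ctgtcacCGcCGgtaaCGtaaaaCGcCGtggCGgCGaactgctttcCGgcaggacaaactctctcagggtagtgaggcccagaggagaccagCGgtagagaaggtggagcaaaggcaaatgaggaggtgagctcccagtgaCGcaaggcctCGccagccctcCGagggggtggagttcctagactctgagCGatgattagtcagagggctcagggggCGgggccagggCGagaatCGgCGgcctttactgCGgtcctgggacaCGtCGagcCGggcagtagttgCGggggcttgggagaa
SLC39A12: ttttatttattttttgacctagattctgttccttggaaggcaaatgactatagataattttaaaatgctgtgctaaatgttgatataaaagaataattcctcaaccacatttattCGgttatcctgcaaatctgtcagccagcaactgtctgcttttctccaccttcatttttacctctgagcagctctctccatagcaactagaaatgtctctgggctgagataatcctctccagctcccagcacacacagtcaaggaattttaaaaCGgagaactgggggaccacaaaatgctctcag
SLC30A1: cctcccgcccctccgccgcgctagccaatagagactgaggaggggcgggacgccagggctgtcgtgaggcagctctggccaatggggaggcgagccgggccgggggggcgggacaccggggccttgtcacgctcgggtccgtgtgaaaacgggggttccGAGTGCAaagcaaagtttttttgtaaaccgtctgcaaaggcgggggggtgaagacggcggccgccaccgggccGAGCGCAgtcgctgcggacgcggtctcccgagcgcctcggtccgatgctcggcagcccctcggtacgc
Of the 34 genes, 26 matched 1 window, 2 matched several and 6 matched none. The core lay in 12 of the 26 windows (46.2%) and in 24.2% of all 33469 windows of this length. It was in neither the SLC31A1 nor the SLC39A12 window. The median number of CpG was 20.5 in the 26 windows (range 2 to 52) and 7 in all windows. It was 22 for the 11 genes with counts in the proximal tubules and 16 for the 15 listed at 0 there, and these ranges overlapped (6 to 52 and 2 to 49). A match describes letters and not a bound site. The pattern TGCGCNC itself holds a CpG, and the share with a core among windows of like CpG number was not computed.

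Zinc transporters were the most numerous, with 12 importers and 5 exporters. SLC39A12 (ZIP12, ENSRNOG00000025639), a plasma membrane importer best known from brain, was the highest of these 12 importers in all choroid plexus libraries. It had 116 TPM in males (6871 counts), 76.3 in females and 60.6 in the sorted cells, and was listed at 0 in the proximal tubules. It gave 47.5% of importer TPM in males, 40.6% in females and 33.9% in the sorted cells. Among the choroid plexus libraries, its share was thus lowest in the sorted cells, as was its own level. SLC39A7 is a ZIP gene in none of the study's lists of transporters and pumps. It had 115 TPM in males, 115 in females and 202 in the sorted cells.

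SLC39A1 (ZIP1), a widely expressed plasma membrane importer, had 35.6 TPM in males, 33.9 in females and 42.5 in the sorted cells, and 1 count in the proximal tubules. SLC39A9 (ZIP9), which is found in the Golgi and at the plasma membrane, had 30.6 TPM in males, 25.9 in females, 17.5 in the sorted cells and 1.33 in the proximal tubules. SLC39A6 and SLC39A10, which are closely related and are known to form a complex, had 16.2 and 13.8 TPM in males and 13.6 and 6.34 in the sorted cells. SLC39A14, which also carries iron and manganese, had 13.1 TPM in males and 8.85 in the sorted cells. These 3 levels in females were 13.8, 10.35 and 9.46 TPM, and of these genes SLC39A10 alone had counts in the proximal tubules, at 0.753 TPM. SLC39A3 had 12.4, 11.5, 18.7 and 1.83 TPM in males, females, sorted cells and proximal tubules.

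The remaining importers were at or below 3.61 TPM in each choroid plexus library. SLC39A5 had 2.99 TPM in males, 2.86 in females and 3.61 in the sorted cells. SLC39A4 (ZIP4), the intestinal zinc importer mutated in acrodermatitis enteropathica, had 1.25, 1.66 and 3.11 TPM, and SLC39A11 1.20, 0.96 and 2.21. All of SLC39A5, SLC39A4 and SLC39A11 were listed at 0 in the proximal tubules. SLC39A8 (ZIP8), which carries zinc, manganese and cadmium, had 0.77 TPM in males (56 counts), 0.78 in females, 1.52 in the sorted cells (117 counts) and 7.32 in the proximal tubules (227 counts). It was the only importer that was highest in the proximal tubules, where it gave 65.0% of the importer TPM. SLC39A2 lay nearest to the cut-off, with 0.42 TPM in males (13 counts), 0.46 in females and 0.52 in the sorted cells (17 counts), so its place in 1 list rested on a difference within counting error.

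Among the zinc exporters, SLC30A1 (ZnT1, ENSRNOG00000004749), the plasma membrane exporter, had 34.7 TPM in males (1990 counts), 30.2 in females and 12.65 in the sorted cells (765 counts), and was listed at 0 in the proximal tubules. SLC30A5, which loads zinc into the early secretory pathway, was about level with it in males at 33.96 TPM, and had 29.5 in females, 24.1 in the sorted cells and 5.06 in the proximal tubules. SLC30A1 was therefore the highest exporter in whole tissue (33.6% and 33.0% of exporter TPM) and SLC30A5 in the sorted cells (38.3%). SLC30A4, a vesicular exporter, had 28.6 TPM in males, 25.5 in females, 18.7 in the sorted cells and 15.5 in the proximal tubules, and gave 70.4% of exporter TPM there. SLC30A3, best known from synaptic vesicles, had 5.85, 5.97 and 7.33 TPM and was listed at 0 in the proximal tubules. SLC30A2 (ZnT2), a vesicular exporter, stayed below the cut-off in the choroid plexus at 0.17, 0.24 and 0.12 TPM (12, 16 and 9 counts) and had 1.47 TPM in the proximal tubules (43 counts). Over the genes chosen here, zinc importer TPM was 2.37 times exporter TPM in males, 2.05 times in females and 2.85 times in the sorted cells. It was 0.511 times in the proximal tubules, where importers were the lower. These sums hold only genes in the study's lists of transporters and pumps. They leave out SLC39A7 and SLC39A13, which had 115 and 64.4 TPM in males and 202 and 63.7 in the sorted cells. They also leave out the exporters SLC30A6, SLC30A7, SLC30A9 and SLC30A10, for which no level is given here. The ratio over all zinc transporters is therefore not known.

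The 3 magnesium transporters differed widely in level. SLC41A1 (ENSRNOG00000042320), a plasma membrane transporter linked to sodium-dependent magnesium efflux, had 43.4 TPM in males (4652 counts), 31.4 in females and 23.2 in the sorted cells. SLC41A2 had 1.91, 1.55 and 0.74 TPM in these libraries and SLC41A3, found in mitochondria, 1.36, 1.51 and 2.05. SLC41A1 and SLC41A2 were thus lowest in the sorted cells and SLC41A3 highest there. All 3 were listed at 0 in the proximal tubules.

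Of the calcium transporters, ATP2B3 (PMCA3, ENSRNOG00000061304), a plasma membrane calcium pump otherwise best known from neurons, was the highest, and of all 34 genes only SLC31A1 had a higher TPM in the choroid plexus. It had 396 TPM in males, 287 in females and 163 in the sorted cells, and was listed at 0 in the proximal tubules. Its 40329 counts in males were the most of any of the 34 genes. ATP2B2 (PMCA2) had 80.3 TPM in males, 66.1 in females and 52.0 in the sorted cells, ATP2B4 25.0, 16.2 and 12.5, and ATP2B1, the widely expressed form, 14.8, 12.0 and 7.83. ATP2B1 was the only plasma membrane pump with counts in the proximal tubules (38 counts, 0.93 TPM). ATP2B3 gave 76.7% of the TPM of these pumps in males, 75.2% in females and 69.3% in the sorted cells.

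SLC24A4 (NCKX4, ENSRNOG00000006729), a potassium-dependent sodium-calcium exchanger known from olfactory neurons and enamel, was the highest exchanger, with 110.4 TPM in males, 80.3 in females and 54.1 in the sorted cells, and was listed at 0 in the proximal tubules. SLC24A5 (NCKX5), an intracellular exchanger known for its part in pigmentation, had 14.8, 11.4 and 8.75 TPM and, unlike the other exchangers, counts in the proximal tubules (9.43 TPM). SLC24A3 had 10.6, 7.69 and 6.54 TPM. SLC8A1 (NCX1), the cardiac sodium-calcium exchanger, was close to the cut-off at 0.89 TPM in males, 0.81 in females and 0.41 in the sorted cells (57, 51 and 27 counts). TPM of the plasma membrane pumps was 3.77, 3.80 and 3.37 times that of the exchangers in males, females and sorted cells. In the proximal tubules it was 0.0989 times, from ATP2B1 (38 counts) and SLC24A5 (133 counts) alone, with the others listed at 0.

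Of the pumps of internal stores, ATP2A2 (SERCA2), which fills the endoplasmic reticulum, had 168 TPM in males (19563 counts), 139 in females, 102.6 in the sorted cells and 9.54 in the proximal tubules (430 counts). ATP2C2, a secretory pathway pump of some epithelia, was close to the cut-off at 0.62, 0.47 and 0.59 TPM (35, 26 and 35 counts). In each library the genes nearest to the cut-off rested on few counts. In males the lowest gene above it was ATP2C2 (35 counts) and the highest below it SLC39A2 (13), in females SLC39A8 (56) and ATP2C2 (26), in the sorted cells SLC39A2 (17) and SLC8A1 (27), and in the proximal tubules SLC39A10 (37) and SLC39A1 (1).

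Whole choroid plexus of females and males was compared gene by gene, which asks whether the sexes differ in these transporters. None of the 32 genes with 0.5 TPM or more in either library differed by more than 2-fold on log2(TPM + 1), a scale that understates changes of low genes. Among all 13869 genes, 0.440% were more than 2-fold higher in females and 0.959% lower. Of all 34 genes, 28 had a lower TPM in females and 6 a higher one, and 4 of the 32 were higher by any amount on the log2 scale, against 23.1% of all genes. The 95% exact interval of the TPM ratio lay below 1 for 20 of the 32 genes, against 48.1% of all genes with counts in both libraries, and above 1 for none, against 6.06%. It spanned 1 for the other 12. Whether an interval leaves out 1 also depends on the counts of a gene, which were not matched between these shares. The median TPM ratio of all genes was itself 0.882. The median log2 ratio of the 32 genes was −0.21, and it was −0.16 over all genes and −0.18 over the other listed transporters. The genes were thus 0.05 below the median of all genes.

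The lowest female to male ratio was that of ATP7B (0.534, interval 0.416 to 0.681), from 193 counts in males. ATP2B4 (0.650, interval 0.619 to 0.683), SLC39A12 (0.656, 0.632 to 0.682) and ATP7A (0.680, 0.635 to 0.727) also lay well below 1. SLC31A1 had a ratio of 0.866 (0.845 to 0.889) and ATP2B3 of 0.724 (0.713 to 0.735). The highest ratios, of SLC30A2 and SLC39A4 (1.33, interval 0.945 to 1.87), rested on 16 and 82 counts in females. Whether these differences exceed those between pools of animals of the same sex was not measured.

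The sorted cells were compared with the whole male choroid plexus, which asks how far the transcripts of the tissue are those of its epithelium. In bulk samples, fewer cells of a type and less RNA per cell cannot be told apart. This comparison and that of the sexes share the male library. Of 33 genes tested, 5 were more than 2-fold lower in the sorted cells on log2(TPM + 1), against 25.5% of all 14024 genes, and none was more than 2-fold higher, against 4.61% of all genes. The 5 were ATP7A (−1.83), SLC30A1 (−1.39), ATP2B3 (−1.27), SLC24A4 (−1.01) and SLC39A10 (−1.01). As TPM ratios, these came to 0.229 (interval 0.207 to 0.254) for ATP7A, 0.364 (0.335 to 0.396) for SLC30A1, 0.412 (0.405 to 0.419) for ATP2B3, 0.490 (0.469 to 0.512) for SLC24A4 and 0.461 (0.422 to 0.503) for SLC39A10. Other genes passed 2-fold as TPM ratios but were too low to pass on that scale. Lower in the sorted cells were ATP7B at 0.216 (0.156 to 0.294), SLC41A2 at 0.387 (0.295 to 0.504) and SLC8A1 at 0.461 (0.280 to 0.740). Higher was SLC39A4 at 2.49 (1.85 to 3.38).

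The median log2 ratio of all genes was −0.58, that of the 33 genes −0.62 and that of the other listed transporters −0.26. Relative to the median of all genes, a scale added after the data had been seen, 1 gene was more than 2-fold lower (ATP7A, −1.25), against 6.03% of all genes. On that scale 5 were more than 2-fold higher, against 10.9% of all genes. These were SLC39A4 (1.45), SLC31A2 (1.16), SLC39A3 (1.14), SLC39A11 (1.13) and SLC39A8 (1.09). Which genes pass 2-fold here therefore depended on the scale. Against the female in place of the male library, 2 genes were more than 2-fold lower in the sorted cells (ATP7A and SLC30A1), against 16.8% of all genes, and none was higher, against 5.61%.

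By direction alone, 10 of the 33 genes had a higher TPM in the sorted cells, against 21.8% of all genes. They were 7 of 12 zinc importers (SLC39A1, SLC39A2, SLC39A3, SLC39A4, SLC39A5, SLC39A8 and SLC39A11), the zinc exporter SLC30A3, SLC31A2 and SLC41A3. SLC39A2 was chosen through the list of the sorted cells alone, so its direction was fixed by the choice. The same holds, the other way, for SLC8A1 and ATP7B, which were in the male list alone. None of the 10 calcium transporters was higher. The intervals lay above 1 for 8 of the 33, against 15.0% of all genes with counts in both libraries, and below 1 for 22, against 69.2%. As for the sexes, counts were not matched between these shares. The 8 are among the 10 named above, with SLC39A4 at 2.49 (interval 1.85 to 3.38), SLC39A8 at 1.97 (1.42 to 2.77) and SLC39A11 at 1.84 (1.41 to 2.42), and spanned 1 for SLC39A5 and SLC39A2. SLC39A3 and SLC31A2 lay at 1.51 (1.395 to 1.63) and 1.53 (1.37 to 1.71), and SLC39A1 at 1.19 (1.12 to 1.27). SLC31A1, on the other side, had a ratio of 0.533 (0.518 to 0.549), SLC39A12 of 0.522 (0.501 to 0.543) and SLC41A1 of 0.535 (0.510 to 0.562).

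Several measures moved with this comparison. Immune cell markers (9 named genes) summed to 848 TPM in males, 552 in females and 4631 in the sorted cells, with 8 of 9 higher in the sorted cells than in males and none listed at 0 in these libraries. Endothelial markers (7 named) summed to 180, 151 and 264 TPM and mural and fibroblast markers (5 named) to 353, 268 and 381. Of these, 5 of 7 and 2 of 5 were higher in the sorted cells than in males. DCN went from 102 to 239 TPM, and PDGFRA, DDR2 and RGS5 were lower in the sorted cells. Of the epithelial markers, 2 of 10 were higher in the sorted cells, TTR among them. Effective length, the part of a transcript from which reads can come, also moved with the ratio. The 10 genes that were higher had a median effective length of 2096 bases and a median male level of 2.18 TPM, and the 23 others 4160 bases and 25.0 TPM. Spearman's rho of effective length with the log2 ratio was −0.40 across the 33 genes and −0.14 across all 14024 genes tested, all from the same pair of libraries. For females against males it was −0.45 across the 32 genes and −0.31 across all genes. The part of other cell types and of length in the differences was not tested.

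**Figure D3:**
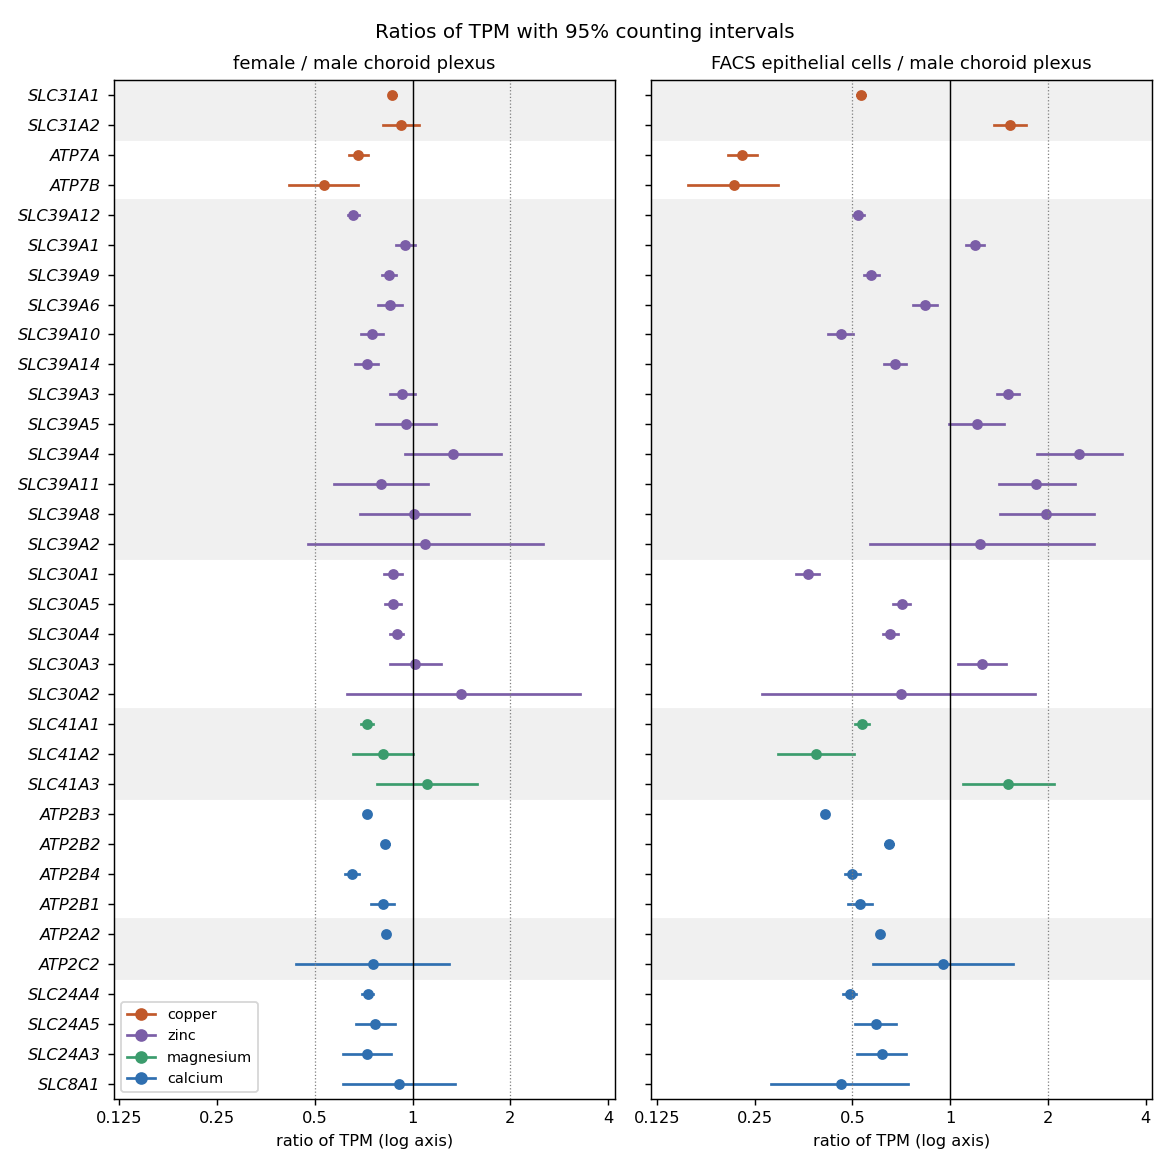
TPM ratio of each metal transporter in the female choroid plexus and in the sorted epithelial cells, each to the male choroid plexus, on a log axis with 95% exact counting intervals as bars and dotted lines at 2-fold. Females sit near or below 1, and 10 of the 34 genes, 7 of them zinc importers, have a higher TPM in the sorted cells. For SLC39A2 this direction was fixed by the choice of genes.

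**Figure D4:**
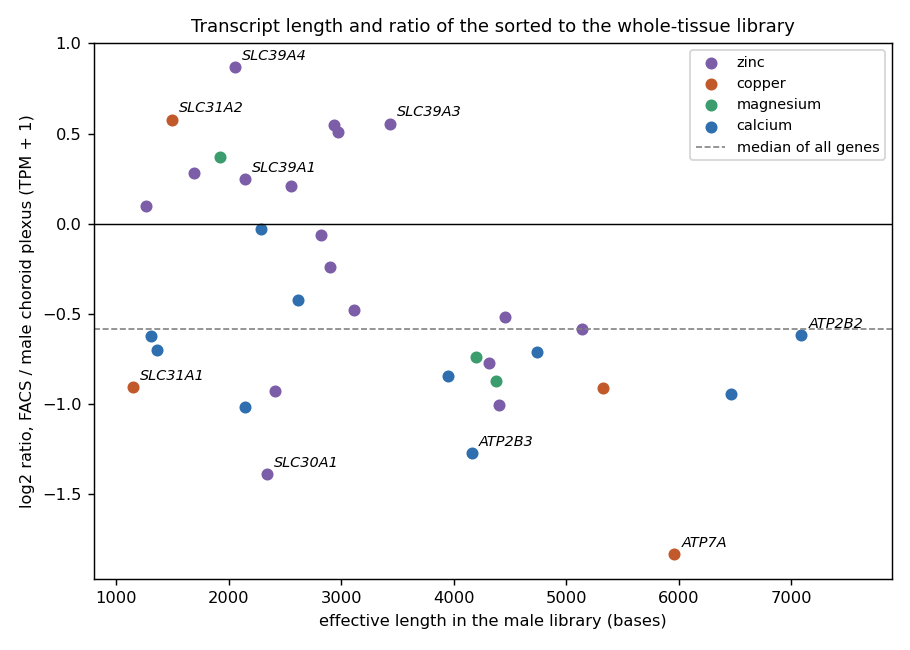
Log2 ratio of TPM (pseudocount 1) of sorted cells to male choroid plexus against effective length in bases, with 1 point per metal transporter tested and a dashed line at the median of all genes (−0.58). The 10 genes above 0 have a median length of 2096 bases and the 23 others of 4160 bases.

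The proximal tubules were compared with the male choroid plexus to set the transporters of a secreting epithelium beside those of an absorbing one. Of the 34 genes, 21 were listed at 0 in the proximal tubules. Among the 32 genes transcribed in the male choroid plexus these were 20 (62.5%), against 58.6% of all genes transcribed there. Among genes with at least 10 TPM in males they were 11 of 22, against 47.3% of all such genes. Of the other listed transporters transcribed in males, 69.5% were listed at 0. The share of metal transporters listed at 0 was thus close to that of all genes, and a gene listed at 0 in this library is not shown to be absent from the proximal tubule.

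On log2(TPM + 1), 27 of 33 genes were more than 2-fold lower in the proximal tubules, against 71.0% of all genes, and 2 were more than 2-fold higher, against 12.1%. The 2 were SLC39A8, at 8.71 times its level in males (interval 6.47 to 11.9), and SLC30A2, at 7.93 times (4.11 to 16.5). With mitochondrially encoded genes kept, neither passed 2-fold. SLC30A2 was chosen through the proximal tubule list alone, so its direction was fixed by the choice and is no result. The genes counted as lower include those listed at 0, for which the value rests on the pseudocount and is no fold. Markers of other nephron segments were present beside them (KCNJ1 89.3 TPM, SLC12A1 17.2 TPM), and the part of such cells was not tested. Among genes with counts, SLC24A5 had a ratio to males of 0.583 (interval 0.478 to 0.708) and SLC30A4 of 0.497 (0.460 to 0.536), the nearest to 1. SLC31A1 was lower by 3.74 times and ATP2A2 by 19.3 times, and ATP7A had a ratio of 0.105 (0.088 to 0.126). The median log2 ratio was −2.27 over all genes, −2.88 over the 33 genes and −2.22 over the other listed transporters. These medians take in genes listed at 0, whose values rest on the pseudocount. Relative to the median of all genes, SLC31A1 lay at 0.38, ATP7A at −0.37 and ATP2A2 at −1.86. On that scale SLC24A5 lay at 1.55 and SLC30A4 at 1.31.

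Other genes of metal handling were drawn from a list of 52 binding proteins, chaperones, channels and further transporters, of which 32 have a name in the study's lists. None of the 30 tested was more than 2-fold higher in the sorted cells than in males, against 4.61% of all genes, and 5 (16.7%) were more than 2-fold lower, against 25.5%. Among the 5 were TRPM7, a magnesium and calcium channel with a kinase domain (−1.66), PDZD11, which binds the tails of plasma membrane calcium pumps (−1.35), NIPA1, a magnesium transporter (−1.19), and ITPR1, a calcium release channel (−1.17). The median log2 ratio of the 30 was −0.47. In the list, SLC39A7, SLC39A13 and ATP2C1 have names of the chosen families but are in none of the study's lists of transporters and pumps. SLC39A7, which releases zinc from the endoplasmic reticulum, had 115 TPM in males, 115 in females and 202 in the sorted cells. ATP2C1, the Golgi pump for calcium and manganese, had 59.5, 53.4 and 33.0 TPM, and SLC39A13 64.4 TPM in males. ATOX1, the chaperone that hands copper to ATP7A, had 271, 240 and 151 TPM. SOD3, the secreted copper and zinc dismutase, had 746, 655 and 395 TPM, and SOD1, its cytosolic relative, 724, 835 and 410. The metallothionein MT3 had 241, 345 and 141 TPM in these libraries and was listed at 0 in the proximal tubules. MT1 had 1548 TPM in the proximal tubules, against 110 in males, both without mitochondrially encoded genes. In the proximal tubules 12 of the 32 named genes were listed at 0 (37.5%), against 56.3% of all genes tested. More than 2-fold lower there were 24 (75%), against 71.0% of all genes, and more than 2-fold higher 6 (18.8%), against 12.1%.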

How the data were processed

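RNA of 4 pooled rat libraries, 1 per condition, was sequenced. The authors aligned paired reads to the genome build Rnor_6.0, annotated by Ensembl release 103, using STAR 2.7.2a, and deposited, from RSEM 1.3.3, an expected count (an estimate that need not be whole), a TPM and an effective length per gene. The deposited FPKM was not used. Strandedness is not given in the sources used here, so overlapping and antisense genes are uncertain.

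Members and lists were chosen with earlier results of these data known. Names came from the study's lists, which name 2452 of 32883 IDs, so a gene outside those lists is mostly not analysed here. Expected counts were rounded to whole numbers for intervals. TPM was compared as a log2 ratio after adding 1 to each value, over genes with 0.5 TPM or more in either library, and 2-fold was the threshold. Ratios have 95% exact (Clopper-Pearson) intervals on the counts. The floor for a gene at 0 is 3 counts. For the proximal tubules, the 13 mitochondrially encoded genes were removed from both libraries and TPM rescaled to 1000000. Genes named in full are the highest of each role, those past 2-fold with 10 or more counts and those that cross the cut-off between libraries; the others are given as levels. Promoters came from RefSeq (GRCr8). Python 3.11.15, numpy 2.4.6, pandas 2.3.3, scipy 1.17.1 and matplotlib 3.10.9 were used, and the ratio intervals were tested on simulated data. No p-value was computed. The values of 1 gene of the metal handling list are not reported here. Other cut-offs, pseudocounts, scalings and reference libraries were tried.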

Additional observations from a re-analysis of the deposited data

How the results depend on the processing

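No paired analysis was possible because each condition had 1 library, and no library could be left out. Of the values computed under other settings, 117 stayed within the limits set, 35 moved and 3 changed sign. The 117 include values that could not move. These are the shares of the metals after removal of the 10 highest or the mitochondrial genes, since rescaling leaves a share among the members unchanged. A count was taken to have moved past 1.5 times its value. For the sexes, none of the genes passed 2-fold in either direction under any setting tried. The number of genes lower in the proximal tubules, 27, ranged from 21 with a cut-off of 5 TPM to 31 without the 10 highest genes, and shared genes were not counted. For the sorted cells against males, the number of genes more than 2-fold higher went from 0 to 1 with a pseudocount of 0.1 or 0.5, without the 10 highest genes, or from expected counts scaled to library size, and to 5 relative to the median of all genes. The number more than 2-fold lower went from 5 to 3 without the 10 highest genes or from expected counts scaled to library size, to 2 with the female library in place of the male one, to 1 relative to the median, and up to 6 and 7 with a pseudocount of 0.5 and 0.1. The members' median relative to all genes (−0.03) was −0.13 with a cut-off of 0.1 TPM and −0.35 with the other transporters as reference, and turned positive with a pseudocount of 0.1 (0.0033) or 0.5 (0.0168) and with the female library (0.12). The cause was not tested. In the proximal tubules the genes more than 2-fold higher went from 2 to 1 with a cut-off of 5 TPM, without the 10 highest genes or with the female library, and to 0 with mitochondrial genes kept. The number of genes that passed the cut-off on the deposited proximal tubule TPM went from 7 to 12 with a cut-off of 0.1 TPM, 10 or more counts, the 10 highest genes removed or the mitochondrial genes removed, and to 1 with 5 TPM. Without the highest gene of each metal, calcium, copper, magnesium and zinc held 61.7%, 4.27%, 0.474% and 33.6% of the rest in males, 59.3%, 4.11%, 0.543% and 36.0% in females and 54.0%, 5.46%, 0.614% and 39.9% in the sorted cells, while calcium, copper and zinc held 36.3%, 2.95% and 60.7% in the proximal tubules. Depth limits genes under about 100 counts in a library, for which intervals of the ratio are wide, and the zeros of the proximal tubule library.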
